A study of Zea mays with 28 samples.

Results

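MPI (GRMZM2G028393, also named sci1) and WIP1 (GRMZM2G156632) are a pair of maize genes that encode proteinase inhibitors. They were chosen by name and make up 2 of the 39625 genes in the count table. Both were followed across all 7 groups of maize leaves. Spider mites are small herbivores that pierce leaf cells and feed on their contents, and the leaves had been exposed to a grass specialist, a generalist or mechanical damage.

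The samples were 28 segments of leaf 4 of plants of the inbred B73, 22 days old, with 4 segments per group and each segment taken from a separate leaf. Every segment was bounded by wax barriers, which the control leaves carried too. The treated groups were *O. pratensis* (the Banks grass mite, a specialist on grasses) for 24 h or 2 h, *T. urticae* (the two-spotted spider mite, a generalist) for 24 h or 2 h, and wounding with sandpaper 24 h or 2 h before collection. The controls received neither mites nor wounding, and the same 4 control leaves served every comparison. Leaves infested for 24 h received 200 mites and leaves infested for 2 h received 400, so exposure time and mite number cannot be told apart in any comparison of 24 h with 2 h of mite feeding.

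Libraries of polyadenylated RNA held between 14721310 and 32891100 counted reads, with a median of 26440384.5. Levels are given as CPM, which are read counts scaled to a common library size with TMM factors. Leaf identity was checked with 4 marker genes of C4 photosynthesis. The mesophyll markers pep1 and pdk1 had at least 9619 and 18192 CPM in every leaf, and the bundle sheath markers me3 and ssu1 had at least 3644 and 1251 CPM. No library had the same counts as another.

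Proteinase inhibitors bind the active site of protein-digesting enzymes and block them, and plants use them against the gut enzymes of animals that eat their leaves. MPI belongs to the potato inhibitor I family, whose members act on serine proteinases such as chymotrypsin and subtilisin. WIP1 is an inhibitor of the Bowman-Birk type, a family that also acts on serine proteinases, and was named for its induction by wounding. In many plants such genes are under the control of jasmonates, the hormones that accumulate after wounding and herbivory. Cystatins, a further class, block cysteine proteinases, and serpins are large inhibitors that trap their target enzyme.

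MPI transcripts were present in every leaf and were most abundant after 24 h of feeding by either mite species. Values are listed for replicates 1 to 4 of each group. With *O. pratensis* for 24 h, MPI had 480.0, 521, 813 and 562 CPM, and with *T. urticae* for 24 h it had 589, 889, 657 and 1065 CPM. The control leaves had 18.1, 34.8, 12.2 and 23.3 CPM. All 8 leaves with mites for 24 h lay above every control leaf, as held for 22.7% of all genes tested with *O. pratensis* and 26.5% with *T. urticae*. The ranges of the species overlapped each other. In whole leaf segments, more transcript per cell and more cells with the transcript cannot be told apart.

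At 2 h after release of the mites the MPI values were far lower. They were 54.0, 59.2, 51.0 and 80.7 CPM with *O. pratensis* and 29.2, 51.8, 38.5 and 48.8 CPM with *T. urticae*. The *O. pratensis* leaves all lay above the controls, as held for 10% of all genes, whereas the lowest *T. urticae* leaf, at 29.2 CPM, lay below the highest control leaf, at 34.8 CPM. By group mean, wounded leaves stood between these groups and the leaves with mites for 24 h. They had 69.9, 125.5, 134 and 111 CPM at 24 h and 152, 185, 188 and 229.7 CPM at 2 h, and lay above every control leaf at both times, as held for 16.3% of all genes at 24 h and 26.3% at 2 h. The ranges at 24 h and 2 h of wounding did not overlap. Every leaf at 24 h lay below those at 2 h, as held for 27.4% of all genes. The lowest leaf wounded for 24 h, at 69.9 CPM, lay below the highest leaf with *O. pratensis* for 2 h, at 80.7 CPM.

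**Figure D1:**
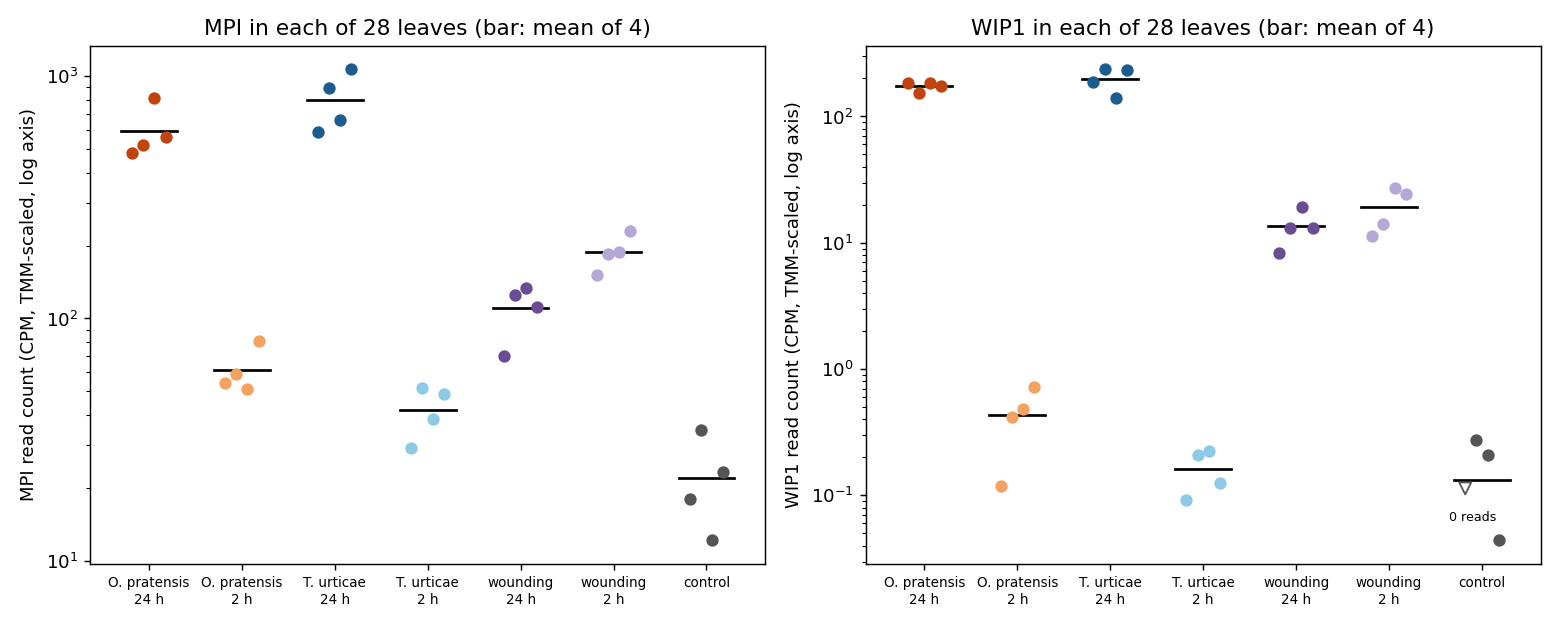
Read counts of MPI (left) and WIP1 (right) in CPM on log axes, with 1 point per leaf, 7 groups of 4 leaves along the horizontal axis and a bar at each group mean. For both genes the 8 leaves with mites for 24 h are the highest of the 28, and the open triangle marks the control leaf with 0 WIP1 reads, drawn at the bound of 0.114 CPM that 3 reads would give.

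Tested against control across all genes with edgeR's quasi-likelihood test, MPI was called higher in 5 of the 6 treatments. Calls required a log2 fold change of 1 or more in size and a Benjamini-Hochberg adjusted p no larger than 0.01. After 24 h of *O. pratensis*, MPI averaged 594 ± 150 CPM, against 22.1 ± 9.61 CPM in control leaves (SD, n = 4 each). That was a log2 fold change of 4.75 ± 0.30 (SE, edgeR adjusted p = 2e-12), or 26.9-fold, in a comparison in which 12.3% of the 22339 genes tested were called higher. After 24 h of *T. urticae* the mean was 799.9 ± 218 CPM and the log2 fold change 5.18 ± 0.31 (SE, edgeR adjusted p = 3.55e-13), or 36.2-fold, and 15% of the genes were called higher.

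Wounding gave smaller rises of MPI. The mean was 110.1 ± 28.4 CPM at 24 h and 189 ± 32.0 CPM at 2 h (SD, n = 4 each). The log2 fold change against control was 2.32 ± 0.27 at 24 h (SE, edgeR adjusted p = 2.68e-07) and 3.09 ± 0.28 at 2 h (SE, edgeR adjusted p = 3.03e-10). In these comparisons 7.8% of the genes at 24 h and 17% at 2 h were called higher.

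Among the 2 h mite treatments, MPI was called with *O. pratensis* alone, but the species did not differ from each other by test. With *O. pratensis* it averaged 61.2 ± 13.4 CPM and rose by 1.47 ± 0.27 on the log2 scale against control (SE, edgeR adjusted p = 0.000197), where 5.25% of the genes were called higher. With *T. urticae* it averaged 42.1 ± 10.3 CPM, and the log2 fold change of 0.93 ± 0.26 was not called (SE, edgeR adjusted p = 0.0378), where 2.47% of the genes were. Without control replicate 2, the control leaf with the most MPI reads, the *T. urticae* value was 1.23 and was called (edgeR adjusted p = 0.00432). The call for *O. pratensis* was lost when the fold change was tested against 2-fold in place of 0 (edgeR glmTreat adjusted p = 0.279).

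WIP1 was almost without reads in control leaves and in leaves infested for 2 h, and held 3372 to 6224 reads per leaf after 24 h of feeding. The control leaves held 0, 8, 5 and 1 WIP1 reads, 14 in all. With *O. pratensis* for 2 h there were 3, 6, 10 and 18 reads, and with *T. urticae* for 2 h there were 2, 4, 5 and 3. No leaf of these 3 groups held more than 18 reads, and the counts of either mite group at 2 h overlapped those of the controls. Intervals from so few reads cover counting error alone.

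The higher levels of WIP1 are given in CPM. With *O. pratensis* for 24 h, WIP1 had 185.7, 154.4, 184.8 and 173.0 CPM, and with *T. urticae* for 24 h it had 187.8, 235.5, 139.2 and 232.9 CPM. Wounded leaves had 8.37, 13.1, 19.2 and 13.2 CPM at 24 h and 11.3, 14.2, 26.9 and 24.5 CPM at 2 h. Every leaf of these 4 groups lay above every control leaf, of which the highest had 0.274 CPM. Of all genes, 22.7% showed this separation from control under *O. pratensis* (24 h) and 26.5% under *T. urticae* (24 h). For wounding the shares were 16.3% (24 h) and 26.3% (2 h). Every leaf with mites for 24 h also lay above every wounded leaf. Leaves with mites lay wholly above those wounded for 24 h in 22.3% of all genes with *O. pratensis* and 22.9% with *T. urticae*. WIP1 levels at 24 h and 2 h of wounding overlapped.

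Against control, WIP1 was called higher in 4 of the 6 treatments. Genes called higher there made up 12.3% (*O. pratensis*, 24 h), 15% (*T. urticae*, 24 h), 7.8% (wounding, 24 h) and 17% (wounding, 2 h) of those tested. After 24 h WIP1 averaged 174 ± 14.6 CPM under *O. pratensis* and 199 ± 45.4 CPM under *T. urticae*, against 0.132 ± 0.130 CPM in control leaves (SD, n = 4 each). The log2 fold change was 10.27 ± 0.44 with *O. pratensis* (SE, edgeR adjusted p = 4.12e-15), at rank 12 by size of rise among the genes tested. With *T. urticae* it was 10.46 ± 0.44 (SE, edgeR adjusted p = 1.1e-15), at rank 13. Counted directly and divided by TMM-scaled library sizes, the ratio of reads was 1273 with *O. pratensis* (exact 95% interval of 758 to 2328) and 1466 with *T. urticae* (exact 95% interval of 874 to 2682).

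In wounded leaves WIP1 averaged 13.5 ± 4.46 CPM at 24 h and 19.2 ± 7.65 CPM at 2 h (SD, n = 4 each). The log2 fold change against control was 6.58 ± 0.45 at 24 h (SE, edgeR adjusted p = 3.76e-11) and 7.09 ± 0.45 at 2 h (SE, edgeR adjusted p = 2.53e-13). All of these fold changes rest on the 14 control reads, of which control replicate 2 held 8. Without that leaf the log2 fold changes were 10.95 for *O. pratensis* at 24 h, 11.15 for *T. urticae* at 24 h, 7.23 for wounding at 24 h and 7.80 for wounding at 2 h, up to 1.64 times larger on the linear scale, and all 4 remained called.

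Neither mite species gave a WIP1 call at 2 h. With *O. pratensis* the mean was 0.434 ± 0.248 CPM and the log2 fold change 1.63 ± 0.75 (SE, edgeR adjusted p = 0.218). With *T. urticae* the mean was 0.162 ± 0.0640 CPM and the log2 fold change 0.23 ± 0.93 (SE, edgeR adjusted p = 0.97). The read ratios to control, on the same scale, were 3.17 with *O. pratensis* (exact 95% interval of 1.67 to 6.34) and 1.17 with *T. urticae* (exact 95% interval of 0.518 to 2.65). No change of WIP1 was detected with *T. urticae* at 2 h, and a small one could not be seen at this depth. The sign of this log2 fold change turned when control replicate 1 (-0.18) or control replicate 4 (-0.01) was left out.

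**Figure D2:**
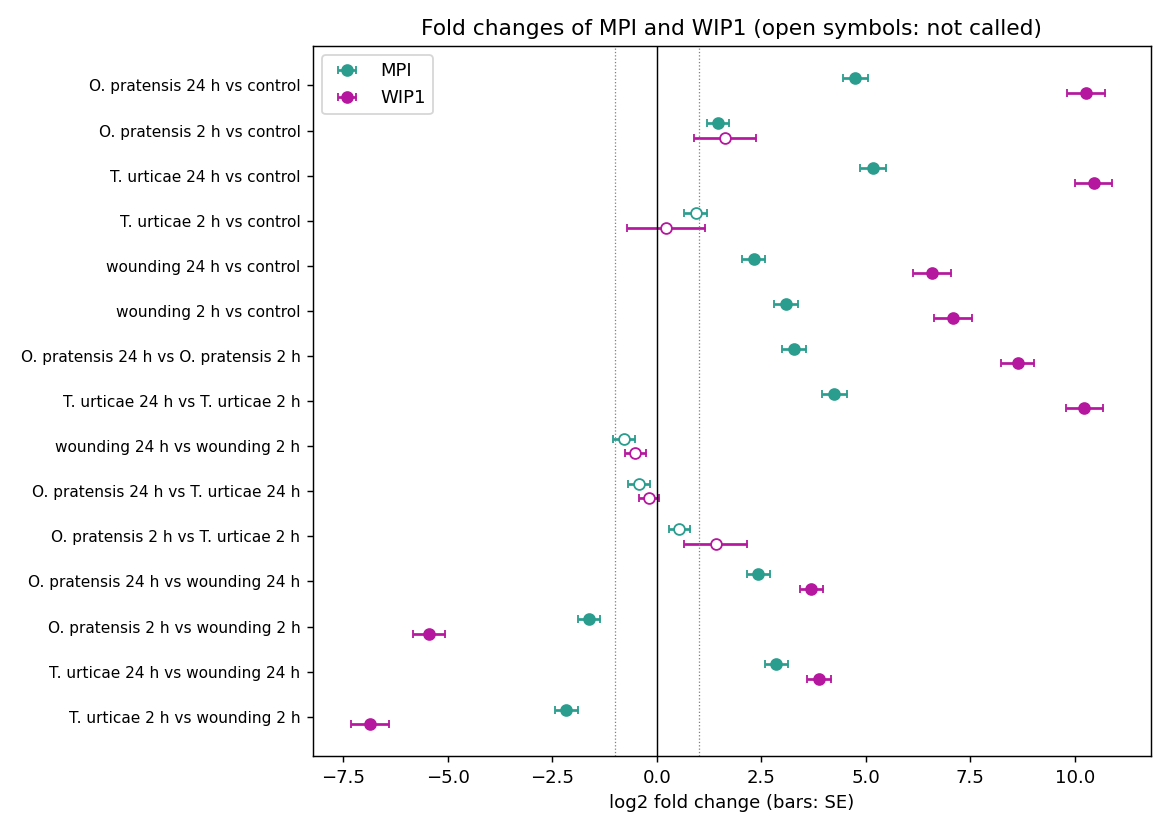
Log2 fold changes of MPI and WIP1 in comparisons of groups, with filled symbols for called changes and dotted lines at -1 and 1. Bars are standard errors computed from edgeR's F statistic. Both genes are near 0 between the mite species at 24 h (-0.43 and -0.19), while WIP1 exceeds 10 in each 24 h mite group against control.

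The group means of both genes fell in the same order, from the lowest to the highest: control, *T. urticae* 2 h, *O. pratensis* 2 h, wounding 24 h, wounding 2 h, *O. pratensis* 24 h and *T. urticae* 24 h. Not all neighbours in this order differed. For MPI, *O. pratensis* at 24 h and wounding at 2 h differed (log2 difference 1.65 ± 0.26, SE, edgeR adjusted p = 7.84e-06), and none of the other neighbours was called. That call was lost when tested against 2-fold (edgeR glmTreat adjusted p = 0.0205). For WIP1 the same step was called (3.18 ± 0.27, SE, edgeR adjusted p = 2.28e-10), and so was the step between wounding at 24 h and *O. pratensis* at 2 h (4.94 ± 0.39, SE, edgeR adjusted p = 3.12e-10). Of all genes, 7.82% were called higher in the first of these steps and 5.53% in the second. The second step was not called for MPI, at 0.85 ± 0.26 (SE, edgeR adjusted p = 0.0141), but was called without wounding 24 h replicate 1 (1.01, edgeR adjusted p = 0.0052) or without *O. pratensis* 2 h replicate 4 (1.03, edgeR adjusted p = 0.00792).

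The mite species were next compared with each other. At 24 h MPI was lower with *O. pratensis* than with *T. urticae* by a log2 difference of -0.43 ± 0.26 (SE, edgeR adjusted p = 0.395), within an interval of 2 SE from -0.94 to 0.08. The difference for WIP1 was -0.19 ± 0.25 (SE, edgeR adjusted p = 0.758), within -0.68 to 0.30. Neither gene was called, in a comparison that called 0.9% of all genes. At 2 h, where 0.68% of all genes were called, the differences were 0.54 ± 0.26 for MPI (SE, edgeR adjusted p = 0.609) and 1.41 ± 0.76 for WIP1 (SE, edgeR adjusted p = 0.743). The wide error for WIP1 came with 37 reads in all *O. pratensis* leaves at 2 h and 14 in all *T. urticae* leaves.

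With mites, both genes were far higher at 24 h than at 2 h. MPI was 9.70-fold higher at 24 h than at 2 h of *O. pratensis* (log2 fold change 3.28 ± 0.28, SE, edgeR adjusted p = 1.47e-09) and 19.01-fold higher for *T. urticae* (4.25 ± 0.29, SE, edgeR adjusted p = 1.24e-11). WIP1 was 398-fold higher for *O. pratensis* (8.64 ± 0.40, SE, edgeR adjusted p = 2.5e-14) and 1201-fold higher for *T. urticae* (10.23 ± 0.44, SE, edgeR adjusted p = 3.62e-15). Of the genes tested, 6.76% were called higher at 24 h than at 2 h with *O. pratensis* and 11.5% with *T. urticae*. By size of rise WIP1 stood at rank 9 in the *O. pratensis* comparison and at rank 4 in the *T. urticae* comparison.

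With wounding, the change over time ran the other way. The MPI difference between 24 h and 2 h was -0.78 ± 0.26 (SE, edgeR adjusted p = 0.0114), with every 24 h leaf below every 2 h leaf. Of all genes, 27.4% had their leaves in that position and 14.7% were called lower. The WIP1 difference was -0.51 ± 0.26 (SE, edgeR adjusted p = 0.0881). Neither was called.

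The change with time was tested against wounding as a difference of differences. For MPI it was 4.06 ± 0.38 log2 units larger with *O. pratensis* (SE, edgeR adjusted p = 1.14e-09) and 5.03 ± 0.38 larger with *T. urticae* (SE, edgeR adjusted p = 1.68e-11). For WIP1 the corresponding values were 9.15 ± 0.47 (SE, edgeR adjusted p = 3.24e-14) and 10.74 ± 0.52 (SE, edgeR adjusted p = 4.16e-15). Such differences were called higher for 17.6% of all genes with *O. pratensis* and 20% with *T. urticae*. Between the species, the change with time differed by -0.97 ± 0.37 for MPI (SE, edgeR adjusted p = 0.156) and -1.60 ± 0.79 for WIP1 (SE, edgeR adjusted p = 0.325), with 0.739% of all genes called.

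Set against wounding at the same time, the mite groups changed sides between 2 h and 24 h. At 24 h MPI was 5.40-fold higher with *O. pratensis* (log2 2.43 ± 0.27, SE, edgeR adjusted p = 8.87e-08) and 7.26-fold higher with *T. urticae* (2.86 ± 0.27, SE, edgeR adjusted p = 6.05e-09) than after wounding. WIP1 was 12.9-fold higher with *O. pratensis* (3.69 ± 0.28, SE, edgeR adjusted p = 1.6e-10) and 14.7-fold higher with *T. urticae* (3.88 ± 0.28, SE, edgeR adjusted p = 3.82e-11). In these comparisons 7.73% of genes with *O. pratensis* and 8.49% with *T. urticae* were called higher than after wounding.

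At 2 h both genes were lower with mites than after wounding. The MPI log2 difference was -1.62 ± 0.26 with *O. pratensis* (SE, edgeR adjusted p = 1.01e-05) and -2.17 ± 0.27 with *T. urticae* (SE, edgeR adjusted p = 1.31e-07). The WIP1 log2 difference was -5.45 ± 0.39 with *O. pratensis* (SE, edgeR adjusted p = 8.48e-12) and -6.86 ± 0.45 with *T. urticae* (SE, edgeR adjusted p = 1.14e-12). The MPI difference with *O. pratensis* was no longer called when tested against 2-fold (edgeR glmTreat adjusted p = 0.0287). All 4 differences were called by the usual test and no leaf overlapped, in comparisons that called 12.5% of genes lower with *O. pratensis* and 15% lower with *T. urticae*. Leaves lay wholly below those of wounding in 24.7% of genes with *O. pratensis* and 25.6% with *T. urticae*. The extent of damage by mites and by sandpaper was not analysed here. The paper describes wounding as damage done at once at the start, unlike continuous mite feeding, and the part of this was not tested.

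Whether both genes changed equally was examined with the log2 ratio of WIP1 to MPI in each leaf, taken from log2 CPM with a prior count of 2. The ratio is not adjusted for gene length, so only its differences between groups are read. Its mean at 24 h was -1.74 ± 0.31 for *O. pratensis*, -2.00 ± 0.27 for *T. urticae*, and -3.04 ± 0.19 for wounding, set beside -3.37 ± 0.44 for wounding at 2 h and -6.87 ± 1.10 in controls (SD, n = 4 each). Against controls it was higher by 5.13 with *O. pratensis* at 24 h, by 4.87 with *T. urticae* at 24 h, by 3.83 with wounding at 24 h and by 3.51 with wounding at 2 h. Each of these gave a two-sided exact permutation p of 0.0286, the smallest that 4 against 4 leaves allow (Benjamini-Hochberg adjusted over 21 pairs of groups, 0.0375). WIP1 thus rose more than MPI in these groups. Without wounding 2 h replicate 3, the adjusted permutation p for wounding at 2 h was 0.0706, with fewer leaves and a difference of 3.32. The remaining wounded leaves, at -3.74 to -3.22, still lay above every control leaf, at most -5.42.

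The ratio was also higher with mites than after wounding at 24 h, by 1.30 with *O. pratensis* and 1.04 with *T. urticae* (exact permutation p = 0.0286 each). It differed by 0.26 between the species at 24 h (exact permutation p = 0.257) and by 0.32 between the times of wounding (exact permutation p = 0.257). In leaves with mites for 2 h it averaged -7.04 ± 0.72 for *O. pratensis* and -7.46 ± 0.38 for *T. urticae* (SD, n = 4 each), and the exact permutation p against control was 0.743 and 0.429.

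**Figure D3:**
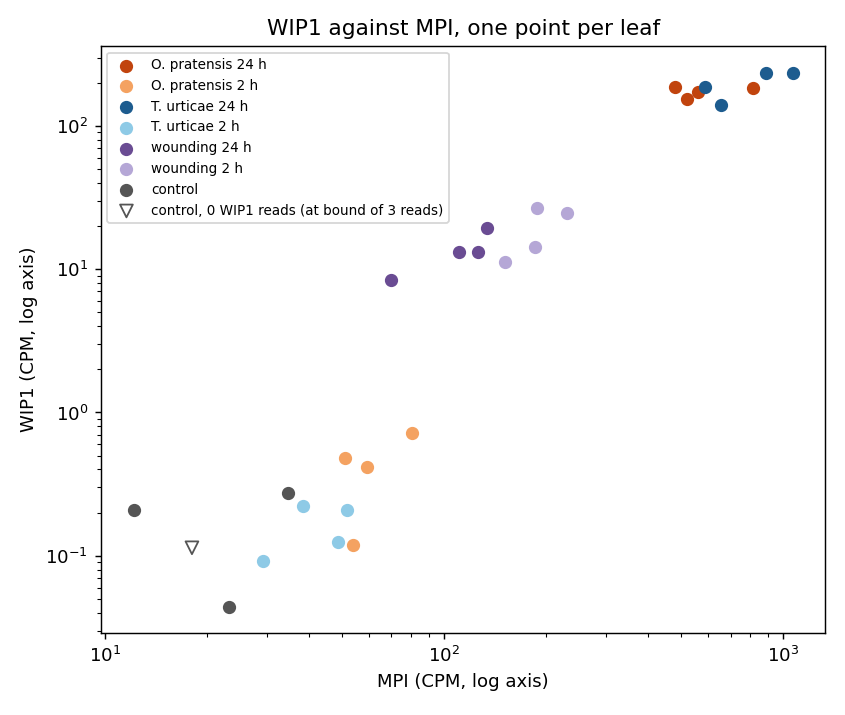
CPM of WIP1 against CPM of MPI on log axes, with 1 point per leaf and colours for the 7 groups. The 8 leaves with mites for 24 h form the upper right group at 139 to 235 CPM of WIP1, the wounded leaves lie between on the WIP1 axis, and the leaves of the 2 h mite groups and controls lie at the lower left, below 1 CPM of WIP1.

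Across the 28 leaves the log2 CPM of both genes had a Pearson correlation of 0.9544 and a Spearman correlation of 0.9546. These values describe leaves that share groups and treatments and carry no test. Within groups the leaf order agreed less. The leaf with the most MPI was also the leaf with the most WIP1 in 3 of 7 groups, namely *O. pratensis* 2 h, wounding 24 h and control. The leaf with the least was shared in 3 of 7 groups, namely *T. urticae* 2 h, wounding 24 h and wounding 2 h. In controls and in both 2 h mite groups the WIP1 order rests on at most 18 reads per leaf, so it carries counting error.

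Genes with the most similar pattern were ranked by Pearson correlation of log2 CPM over the 28 leaves. For MPI the 5 closest were GRMZM2G042789 (0.9834), GRMZM5G826838 (0.977), GRMZM2G347174 (0.9739), GRMZM2G134930 (0.9737) and GRMZM2G124365 (0.9706). For WIP1 they were GRMZM2G099619 (0.9827), GRMZM5G804618 (0.9753), GRMZM2G145568 (0.9748), GRMZM2G070708 (0.9688) and GRMZM2G347174 (0.9683), so that 1 gene was in both lists. Rank order gave Spearman values for these entries between 0.9092 and 0.9803. WIP1 itself stood at rank 15 among the genes closest to MPI, and MPI at rank 13 among those closest to WIP1. The sizes of change differed even among close genes. With *T. urticae* at 24 h against control, GRMZM2G042789 had a log2 fold change of 5.65 and GRMZM2G124365 one of 1.92, and with WIP1's neighbours the range ran to 8.75 in GRMZM2G145568.

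Other proteinase inhibitors were taken from the reference name table by their names. They were 11 genes, of which 9 were cystatins and 2 were serpins. No further gene of the potato inhibitor I or Bowman-Birk families was found by name. Only 18539 of the 39625 identifiers had one entry in the name table, and inhibitor genes without a matching name are missing here. The paper reports larger rises for serine protease inhibitors than for cystatins, with MPI and WIP1 among them. Whether rises of this size are particular to MPI and WIP1 was not tested. Of the 11 genes, 8 passed the filter on low counts and 3 did not. The log2 fold changes of these 8 genes against control ran between -0.55 and 1.85 over all 6 treatments.

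After 24 h of *O. pratensis*, 2 of the 8 were called higher and none lower, against 12.3% of all genes called higher. Cystatin2 (GRMZM2G012160) had 80.4, 71.0, 82.0 and 103 CPM there, against 26.6, 28.3, 18.2 and 20.4 CPM in controls, with no overlap between the groups. Its log2 fold change was 1.85 ± 0.18 (SE, edgeR adjusted p = 5.61e-09). CC7 (GRMZM2G148925), a further cystatin, rose by 1.00 ± 0.29 (SE, edgeR adjusted p = 0.00628), which is at the fold threshold. Its call was lost with RLE size factors, with DESeq2, with glmTreat and with only the groups compared. It was also lost when some single leaves were left out, among them any *O. pratensis* leaf at 24 h.

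After 24 h of *T. urticae*, 4 of the 8 were called higher and none lower, against 15% of all genes called higher. They were the cystatins Cystatin2 (1.78 ± 0.18, SE, edgeR adjusted p = 7.24e-09), CC7 (1.70 ± 0.29, SE, edgeR adjusted p = 1.67e-05), CC5 (GRMZM2G024264, 1.15 ± 0.13, SE, edgeR adjusted p = 4.05e-08) and Cystatin-1 (GRMZM2G438551, 1.07 ± 0.14, SE, edgeR adjusted p = 5.35e-07). The median log2 fold change of the 8 was 0.99, against 0.04 over all genes tested. With *O. pratensis* at 24 h it was 0.68, against -0.01. CC3 (GRMZM2G440968) had a log2 fold change of -0.55 ± 0.14 with *T. urticae* at 24 h (SE, edgeR adjusted p = 0.00133), short of the fold threshold.

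After wounding, 1 of the 8 was called higher at each time, against 7.8% of all genes called higher at 24 h and 17% at 2 h. CC6, which the filter removed, was also called at 24 h by DESeq2 and by edgeR without the filter. The called gene of the 8 was CC7 at 24 h (1.401 ± 0.285, SE, edgeR adjusted p = 0.000472) and CC5 at 2 h (1.47 ± 0.13, SE, edgeR adjusted p = 2.09e-10). The median of the 8 was 0.41 at 24 h, against 0.00 over all genes, and 0.13 at 2 h, against -0.03. At 2 h of mite feeding none was called by edgeR with either species, DESeq2 called 0 and the unadjusted p was under 0.05 for 1 gene with each species.

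Of the 3 untested cystatins, CC8 (GRMZM2G401374) had 0 reads in every library and CC10 (GRMZM2G030717) had at most 3 reads in any group. CC6 (GRMZM2G401328) had 22 reads with *O. pratensis* at 24 h, 15 with *T. urticae* at 24 h, 76 after wounding at 24 h and 5 after wounding at 2 h, against 1 in the controls. Relative to TMM-scaled library sizes its ratio to control was 60.1 after wounding at 24 h, with an exact 95% interval of 10.5 to 2406. DESeq2, which tested CC6, called it higher at 24 h with log2 fold changes of 4.02 for *O. pratensis* (DESeq2 adjusted p = 0.00304), 3.65 for *T. urticae* (DESeq2 adjusted p = 0.00667) and 5.60 for wounding (DESeq2 adjusted p = 1.95e-05). These values rest on the single control read.

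**Figure D4:**
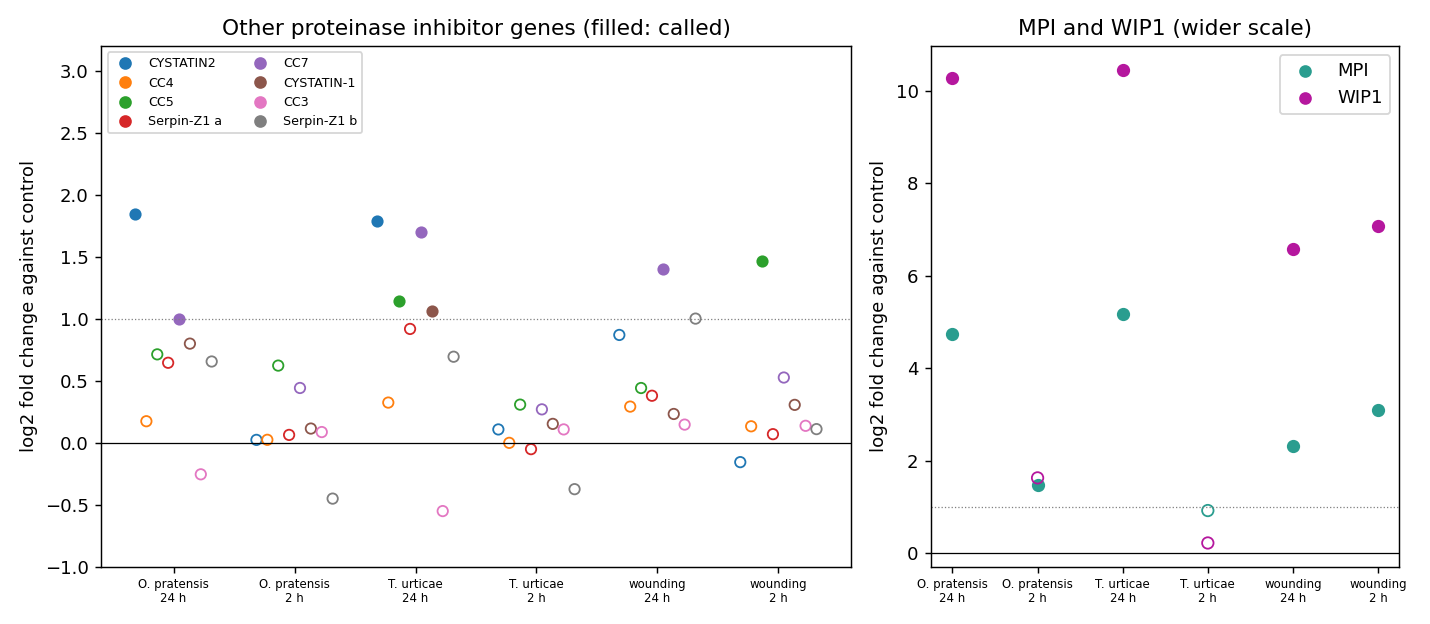
Log2 fold changes against control of the 8 tested members of the proteinase inhibitor list (left; Serpin-Z1 a is GRMZM2G066996 and Serpin-Z1 b is GRMZM5G865319) and of MPI and WIP1 (right, wider scale), in the 6 treatments, with filled points for called changes and a dotted line at 1. The 8 genes, all cystatins or serpins, stay below 1.9 (CC6, which the filter removed, is not drawn), whereas WIP1 reaches 10.46 and MPI 5.18 with *T. urticae* at 24 h. Inhibitor genes without a matching name are not drawn.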

How the data were processed

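STAR 2.5.2b and the AGPv3 assembly (B73 RefGen_v3) were used by the authors to align stranded paired-end reads of polyadenylated RNA, and HTSeq 0.6.0 to count uniquely mapped reads for each gene. The deposited values are those raw counts, without normalization. Counting took whole transcript intervals, so reads in introns can contribute. Groups and replicate numbers came from the sample labels, and replicates were separate leaves.

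The analysis used R 4.3.3 and edgeR 4.0.16. filterByExpr kept 22339 of 39625 genes, and TMM factors scaled the libraries. A single quasi-likelihood model held all 28 samples and a mean for each group. Standard errors of log2 fold changes were not edgeR output. Each was computed as the size of the log2 fold change divided by the square root of the test's F statistic. Benjamini-Hochberg adjustment ran over all genes tested, and calls required an adjusted p no larger than 0.01 with a log2 fold change of 1 or more in size. On simulated counts with known changes, drawn for wounding at 2 h against control over 20910 genes, 100% of genes changed 4-fold and 46% of genes changed 2-fold were called. A true 2-fold change lies at the call threshold itself. The changed genes all had more than 1 CPM in control, so these shares do not cover WIP1, at 0.132 CPM there. Gene names came from a table of the Zm-B73-REFERENCE-NAM-5.0 assembly, in which 19060 identifiers were found and 18539 had one entry. Its coordinates were not used. The genes to be named were both members, in each contrast with control the 2 called inhibitor genes with the largest and the 2 with the smallest change whose leaves did not overlap, and the 5 genes closest to each member. CC3, CC6, CC8 and CC10 were named after their values were seen. No sequences were used here, so the planned motif search and protein comparison were not made.

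Log2 CPM used a prior count of 2. Alternatives were DESeq2 1.42.0, RLE size factors, no expression filter, glmTreat, fits restricted to the groups being compared, a prior count of 0.5, a block for replicate number, and omission of each library in turn. The members and lists were chosen with earlier results of these data known. Exact intervals of read ratios are at the 95% level and cover counting error only, since reads and not molecules were counted. For the leaf with 0 WIP1 reads, a bound of 3 reads was used in plots.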

Additional observations from a re-analysis of the deposited data

Results flagged for a closer look

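For both genes the difference between 24 h and 2 h was not the same with mites as with wounding, as tested by an interaction term in edgeR. For MPI, the difference was larger by 4.06 log2 units with *O. pratensis* and by 5.03 with *T. urticae*. For WIP1 it was larger by 9.15 with *O. pratensis* and by 10.74 with *T. urticae*. In every case the mite term was a rise and the wounding term was below 0 without a call. Mite number (200 at 24 h and 400 at 2 h) differed between the mite groups and had no counterpart in wounding. By the paper's account, wounding was a single damage at the start, whereas mite feeding was continuous. The part of either in the difference was not tested.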

How the results depend on the processing

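Of 48 fold changes and interactions of MPI and WIP1, 7 changed call or sign under at least one alternative, and 1620 of 1629 values kept both. Against a fold change of 2 (glmTreat), MPI lost its call with *O. pratensis* 2 h against control (1.47), *O. pratensis* 2 h against wounding 2 h (-1.62), *O. pratensis* 24 h against wounding 2 h (1.65) and wounding 24 h against *T. urticae* 2 h (1.39). With single libraries left out, the MPI value ranged between 0.75 and 1.23 for *T. urticae* 2 h against control and between 0.72 and 1.03 for wounding 24 h against *O. pratensis* 2 h. The WIP1 value for *T. urticae* 2 h against control ranged between -0.18 and 0.91. WIP1 failed the expression filter in fits of only the *O. pratensis* 2 h, *T. urticae* 2 h and control groups, so these gave no value.

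The ratio of WIP1 to MPI with *O. pratensis* 2 h against control was -0.17, but 0.47 with a prior count of 0.5, and -0.50 to 0.31 with single leaves left out. The ratio ranged between 3.18 and 3.99 for wounding 2 h against control and between 1.24 and 1.55 for *T. urticae* 24 h against wounding 2 h. There the adjusted permutation p passed 0.05 without *T. urticae* 24 h replicate 1 (0.075), at a difference of 1.25. The remaining *T. urticae* leaves, the lowest at -2.24, still lay above every wounded leaf, at most -2.80.

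The count of called inhibitor genes at 24 h of *O. pratensis* was 1 with RLE, with glmTreat and with only the groups compared, and 1 to 3 with libraries left out. With DESeq2 it stayed at 2, with CC6 called in place of CC7. For *T. urticae* at 24 h it was 1 with glmTreat. For wounding at 24 h it was 2 with DESeq2 and without the filter, 0 with glmTreat and 1 to 2 with libraries left out. The second gene at wounding 24 h was CC6, which passed the filter in 25 of 28 fits with a library left out and was called in 25 of them for wounding at 24 h, in 21 for *O. pratensis* at 24 h and in 19 for *T. urticae* at 24 h. Other causes were not tested.

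Groups share replicate numbers in the labels, and the paper describes a randomized block design without saying whether these numbers are the blocks. Same-numbered leaves had correlations of deviations between -0.247 and 0.332. Of 84 same-numbered pairs, 47 were over 0.1, and in 2 of 21 pairs of groups all 4 were. Of the 28 samples, 19 correlated best with their own number. With the replicate block no call of MPI or WIP1 changed, and *O. pratensis* 24 h against control gave 4.79 for MPI and 10.29 for WIP1.

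Counts over all genes fell under glmTreat in every comparison. Against control it called 1571 genes (edgeR's usual test 2929) with *O. pratensis* 24 h, 659 (1184) with *O. pratensis* 2 h, 1932 (4254) with *T. urticae* 24 h, 220 (553) with *T. urticae* 2 h, 851 (1924) with wounding 24 h and 3371 (5684) with wounding 2 h. Between the species it called 1 gene (201) at 24 h and 2 (152) at 2 h. For the species comparison at 2 h, DESeq2 called 237 and a fit of these groups alone 1. For *T. urticae* 2 h against control a fit of these groups alone called 294. For the difference in change over time between the species, where 165 genes were called, DESeq2 called 354 and glmTreat 0.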
